A study of Homo sapiens with 10 samples.

Results

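VMP1 and 9 other genes of the autophagy pathway were followed through 10 libraries of merbarone-treated and control cells. The 10 genes, out of 20327 in the tables, are VMP1, SQSTM1, MAP1LC3B, GABARAPL1, WIPI1, ULK1, ATG3, ATG12, BECN1 and NBR1. They were chosen by name, as VMP1 and inducible autophagy genes, with the RPKM differences between treated and control cells within each experiment already known, so their differences between treated and control cells are given as a description, and no test is read from them. All 10 were found by Ensembl identifier.

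Autophagy encloses cytoplasm in a double membrane, the autophagosome, and delivers it to the lysosome for breakdown. The ULK1 kinase complex starts the process, and the lipid kinase complex around BECN1 marks the site with phosphatidylinositol 3-phosphate, which WIPI1 binds. VMP1 is a membrane protein of the endoplasmic reticulum that moves phospholipids between membrane leaflets and is needed for the autophagosome to form. ATG12 and ATG3 belong to the conjugation systems that attach the small ubiquitin-like proteins MAP1LC3B and GABARAPL1 to lipid. SQSTM1 and NBR1 are receptors that bring ubiquitin-tagged cargo to those proteins.

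The cells were hTERT RPE-1, wild type, an immortalised line from retinal pigment epithelium, and all 10 libraries came from cells kept for 48 h in 0.1% serum. Merbarone, a catalytic inhibitor of topoisomerase II, was given at 200 µM. One experiment compared merbarone for 30 min with the vehicle DMSO for 30 min (3 libraries each), and the other compared merbarone for 2 h with untreated cells that had no vehicle (2 libraries each). The series concerns pausing of RNA polymerase II near promoters and DNA supercoiling, and these comparisons address how RNA levels respond to the inhibitor. The labels do not say whether replicates were separate cultures, so the SDs measure the spread between libraries, which may be technical. The SEs also start from that spread, but limma moves the variance of each gene toward a trend over all genes.

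Values are RPKM, reads per kilobase of gene scaled to library size, as deposited. The steps between RPKM values gave back whole reads for every gene with a value above 0, with totals of 26644379 to 38240706 reads in the 30 min experiment and 11962092 to 13696974 in the 2 h experiment. The 10 genes rested on 356 to 25166 reads per library. Of 11 retinal pigment epithelium markers, 5 had a mean of at least 1 RPKM in each group (BEST1, OTX2, PMEL, KRT8 and KRT18). The visual-cycle genes RPE65 and RLBP1 stayed at or below 0.0656 and 0.0603 RPKM. The summed marker level was 26.9 to 33.8 RPKM in the 30 min experiment and 90.5 to 105 RPKM in the 2 h experiment, so levels are compared within each experiment. OTX2 measured 4.35 and 4.61 RPKM untreated and 3.33 and 3.43 RPKM after 2 h of merbarone, a fall with an adjusted p of 0.0349 in limma, and its part in the results was not tested. Of 5 measured markers of blood, macrophage, endothelial and photoreceptor cells, CD68 had a mean of at least 1 RPKM in every group, NRL did so after 2 h of merbarone alone, and CDH5 was at 0 in all 10 libraries. Their sum, mostly CD68, was 21.3 to 21.6 RPKM untreated and 19.1 to 20.1 RPKM after 2 h. NRL, a photoreceptor transcription factor below the filter, rose from 0.391 and 0.378 to 1.18 and 1.66 RPKM at 2 h, by 1.85 on the log2 scale in voom on recovered reads (adjusted p 1.76e-07, limma). The part of NRL in the results was not tested.

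The length behind the VMP1 values bears on what was counted. VMP1 (ENSG00000062716) spans chromosome 17, 57784553 to 57919616 on the plus strand (GRCh37), or 135064 bp, and the RPKM steps implied exactly 135064 bp. The deposited value is therefore scaled to the whole gene, introns included, against 10001 bp of annotated exons. Whether reads in introns were counted is not given in the sources used here. The 72 bp hairpin of MIR21 (57918627 to 57918698, plus strand) lies inside that span, 918 bp before its end, and inside an exon of 10 of 20 annotated VMP1 transcripts. MIR21 was not measured as a gene of its own here, so reads of its primary transcript and reads of VMP1 mRNA cannot be told apart. At its start VMP1 also shares 435 bp with PTRH2, which is read from the opposite strand. The mature microRNA encoded in the hairpin is shown because it is the other product of the counted region. Its sequence is from RefSeq, with the seed (bases 2 to 8) in capitals.
hsa-miR-21-5p: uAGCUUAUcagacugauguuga

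**Figure D1:**
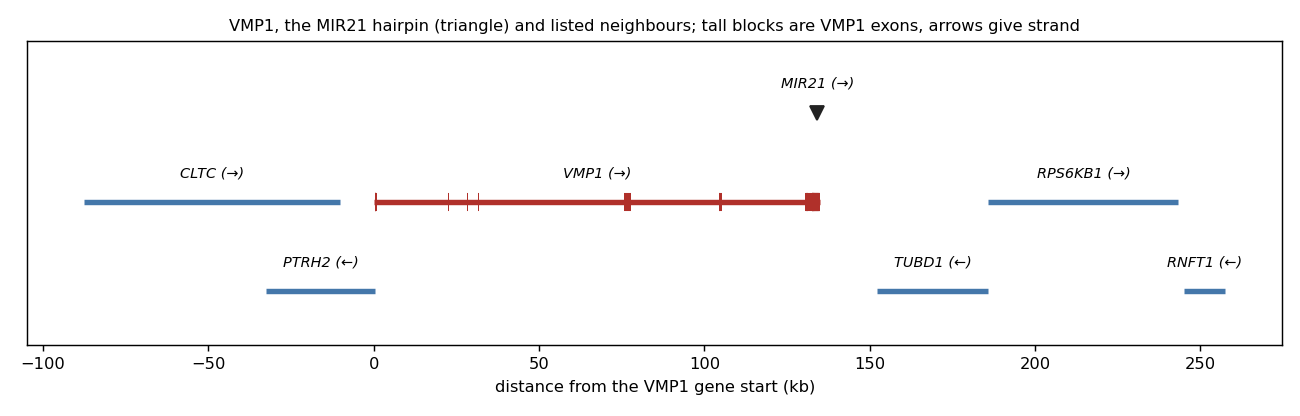
Map of VMP1 and its listed neighbours by distance from the VMP1 gene start in kb; lines are gene spans, tall blocks VMP1 exons, the triangle the MIR21 hairpin and arrows the strand. The hairpin sits within the VMP1 span, close to its end, and PTRH2 meets VMP1 head to head.

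The promoter of VMP1 is shown because VMP1 was the member with the largest difference, and those of ATG3 and MAP1LC3B because the next results turn on these genes. Each window holds 250 bases before and 50 bases after the RefSeq start (GRCh38.p14, in the direction of the gene), at chr17:59707404-59707703 (plus strand), chr3:112561913-112562212 (minus strand) and chr16:87392086-87392385 (plus strand). Capitals mark matches to any of 5 searched motifs on either strand.
VMP1: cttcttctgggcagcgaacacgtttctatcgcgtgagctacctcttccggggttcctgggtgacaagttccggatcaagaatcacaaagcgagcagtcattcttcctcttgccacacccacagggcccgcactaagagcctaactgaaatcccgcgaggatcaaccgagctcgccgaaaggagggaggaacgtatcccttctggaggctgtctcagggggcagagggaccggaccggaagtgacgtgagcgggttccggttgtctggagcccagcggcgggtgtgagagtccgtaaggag
ATG3: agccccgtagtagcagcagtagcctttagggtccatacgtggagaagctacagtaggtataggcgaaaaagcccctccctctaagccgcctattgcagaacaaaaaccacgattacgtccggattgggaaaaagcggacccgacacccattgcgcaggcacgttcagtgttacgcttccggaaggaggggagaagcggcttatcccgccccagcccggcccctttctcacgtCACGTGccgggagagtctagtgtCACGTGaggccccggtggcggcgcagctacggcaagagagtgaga
MAP1LC3B: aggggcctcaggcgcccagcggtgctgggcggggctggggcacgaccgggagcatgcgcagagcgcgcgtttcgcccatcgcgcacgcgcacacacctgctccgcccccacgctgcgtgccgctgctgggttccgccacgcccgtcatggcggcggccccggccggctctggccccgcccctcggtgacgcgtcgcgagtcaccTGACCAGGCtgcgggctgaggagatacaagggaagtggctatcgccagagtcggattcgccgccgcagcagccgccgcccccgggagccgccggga

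The motifs were CACGTG, the E-box core read by TFEB, TGATGNAA, read by ATF4 with C/EBP partners, TGANTCA, read by AP-1, TGACNNNGC, read by NRF2, and GTAAACA, read by FOXO factors. No match was found in the VMP1 window. The ATG3 window held the E-box core at positions -18 and 6 from the start, and the MAP1LC3B window held the NRF2 motif at -46. None of these matches overlapped another motif. All 10 genes matched RefSeq, with 13 windows in total because SQSTM1 and NBR1 have more than 1. Over those 13 windows, 1 held the E-box, 1 the NRF2 motif, and 0 each of the other motifs. Among all 35116 windows the shares were 7.26% for the E-box, 13.3% for the NRF2 motif, 7.71% for AP-1, 3.62% for the ATF4 motif and 3.42% for the FOXO motif. The counts describe these letters in this window only.

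VMP1 was higher after 2 h of merbarone. It measured 1.04 and 0.952 RPKM in the 2 untreated libraries and 2.73 and 2.52 RPKM in the 2 treated libraries. The treated values lay well above both untreated ones, and above all 6 values of the 30 min experiment. The group means were 0.997 ± 0.0641 and 2.62 ± 0.150 RPKM (SD, n = 2), a ratio of 2.63. In these bulk libraries, a change in the share of cells that express a gene and a change in its RNA per cell cannot be told apart. Behind them lay 1877 and 1538 reads untreated and 5051 and 4436 reads treated. The log2 fold change on the log2(RPKM + 1) scale was 0.86 ± 0.07 (SE), which understates the change of a gene with values near 1 RPKM. By that measure VMP1 ranked 81 of the 6620 genes tested in this experiment, so 1.22% of them had a log2 fold change at least as high. The filter of a mean of 1 RPKM was passed by VMP1 only through its 2 h merbarone libraries, here and over all 10 libraries. The effect on VMP1 at 2 h exceeded that at 30 min by 0.67 ± 0.13 (SE). VMP1 was the 1 of 10 members past the threshold for this difference, where 1.63% of 6558 genes were, and no test is read from it.

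VMP1 showed a smaller difference at 30 min. It measured 0.698, 0.955 and 0.745 RPKM in DMSO and 0.887, 1.31 and 0.956 RPKM after merbarone, for replicates 1 to 3. The groups overlapped, while each merbarone library lay above the DMSO library of the same number, with ratios of 1.27, 1.37 and 1.28. All 3 same-numbered pairs were higher for 8.72% of tested genes. The means were 0.799 ± 0.137 and 1.05 ± 0.225 RPKM (SD, n = 3). VMP1 fell below the filter of a mean of 1 RPKM in this experiment and was not tested in the main fit. The difference of its mean log2(RPKM + 1) values was 0.19. Voom on recovered reads, which does not use that filter, gave a log2 fold change of 0.38 and did not call VMP1. With a block for same-numbered libraries, voom gave 0.39 and put VMP1 past the threshold, as 1 of 13 genes. No test is read from this call.

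**Figure D2:**
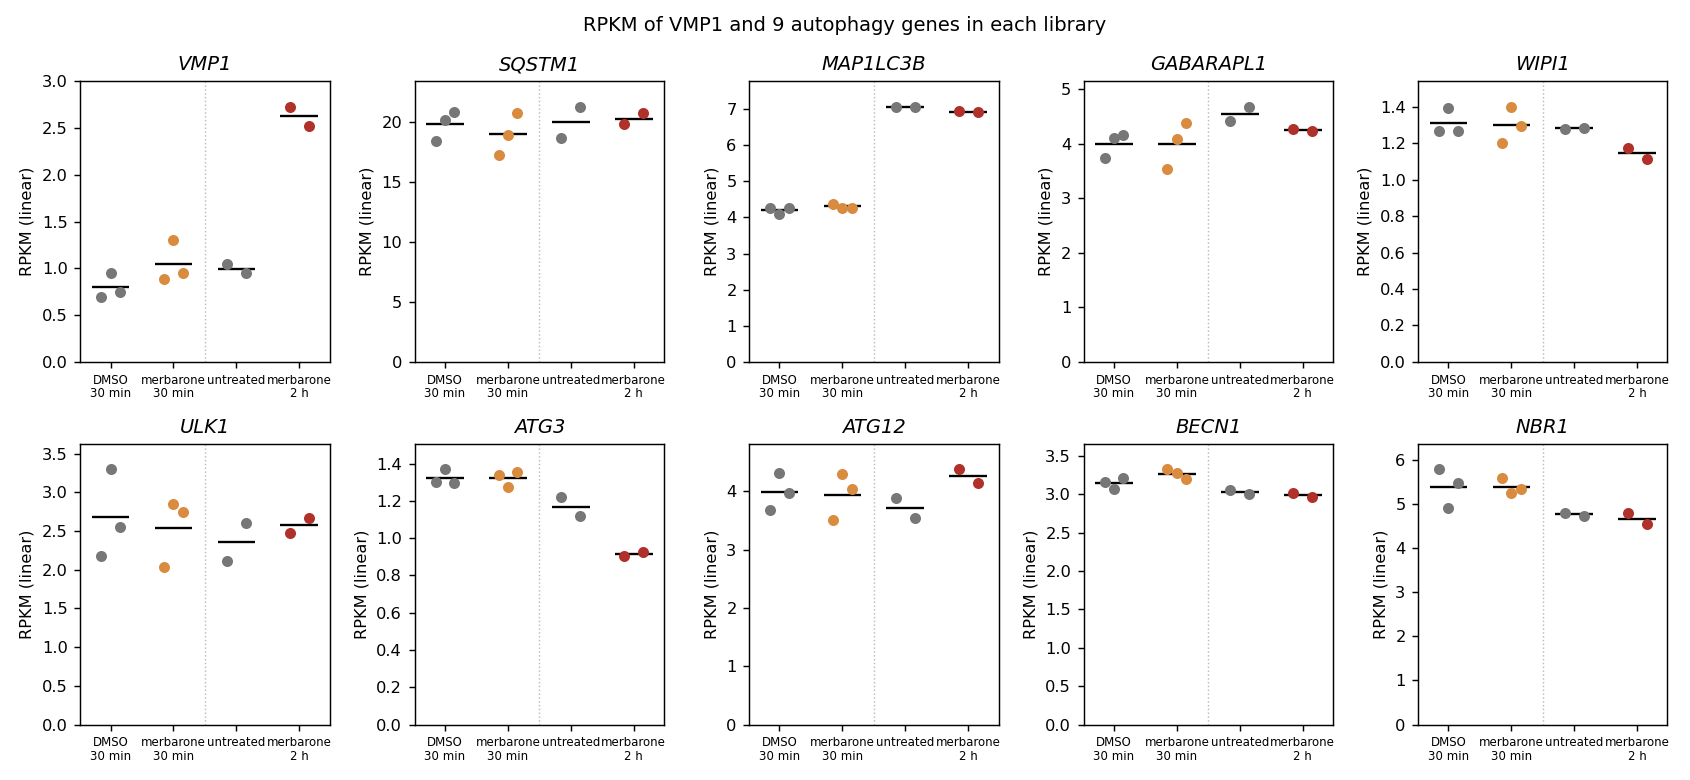
RPKM (linear axis from 0) of each gene in each library; points are libraries, black bars group means, and the dotted line parts the experiments. VMP1 stands at 2.52 and 2.73 RPKM after 2 h of merbarone against 0.952 and 1.04 in untreated cells, and MAP1LC3B lies at 4.08 to 4.39 RPKM in the 30 min experiment and 6.91 to 7.07 in the 2 h experiment.

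The receptors stayed near their control levels. SQSTM1 (ENSG00000161011; GRCh37 chromosome 5, 179233398 to 179265078, plus strand) measured 18.6 and 21.3 RPKM untreated and 19.8 and 20.8 RPKM after 2 h. The treated values fell between the control values. At 30 min it measured 18.4, 20.2 and 20.8 RPKM in DMSO and 17.3, 18.9 and 20.7 RPKM in merbarone, again with overlapping groups. NBR1 (ENSG00000188554; chromosome 17, 41322498 to 41363708, plus strand) measured 4.80 and 4.73 RPKM untreated and 4.79 and 4.54 RPKM treated at 2 h. Its 30 min groups spanned 4.90 to 5.78 and 5.25 to 5.58 RPKM and overlapped. The 2 h log2 fold changes were 0.02 ± 0.11 for SQSTM1 and -0.03 ± 0.08 for NBR1 (SE).

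Of the ubiquitin-like proteins, MAP1LC3B (ENSG00000140941; chromosome 16, 87417559 to 87438385, plus strand) measured 7.07 and 7.07 RPKM untreated and 6.95 and 6.91 RPKM after 2 h. Both treated values lay just below the controls, with a ratio of means of 0.980. At 30 min it measured 4.26, 4.08 and 4.26 RPKM in DMSO and 4.39, 4.27 and 4.26 RPKM in merbarone. GABARAPL1 (ENSG00000139112; chromosome 12, 10365057 to 10375727, plus strand) measured 4.41 and 4.68 RPKM untreated and 4.26 and 4.22 RPKM treated. At 30 min its means were 3.99 ± 0.232 and 3.99 ± 0.423 RPKM (SD, n = 3). Both genes have near-identical copies in the genome, and reads could be split among them, so their levels are uncertain.

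The conjugation genes lay on opposite sides of their controls at 2 h. ATG3, the enzyme that passes the MAP1LC3B family to lipid (ENSG00000144848; chromosome 3, 112251357 to 112280893, minus strand), measured 1.22 and 1.12 RPKM untreated and 0.907 and 0.924 RPKM treated. The treated values lay below both controls, with a ratio of means of 0.784 and 356 to 480 reads per library in this experiment. Its log2 fold change was -0.18 ± 0.06 (SE). It was past the threshold in 5 of 13 alternatives, with the sign kept in all 13. The replicate block and voom with the block were among the 5, while the main fit and voom alone did not call ATG3. ATG12 (ENSG00000145782; chromosome 5, 115163897 to 115177534, minus strand) measured 3.89 and 3.54 RPKM untreated and 4.38 and 4.14 RPKM treated. Both treated values lay above the controls, with a log2 fold change of 0.16 ± 0.09 (SE). At 30 min the groups of both genes overlapped, and log2 fold changes were 0.00 ± 0.04 for ATG3 and -0.01 ± 0.08 for ATG12 (SE).

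The genes that act first were also close to their controls. ULK1 (ENSG00000177169; chromosome 12, 132379167 to 132407695, plus strand) measured 2.11 and 2.60 RPKM untreated and 2.48 and 2.67 RPKM after 2 h. BECN1 (ENSG00000126581; chromosome 17, 40962152 to 40985367, minus strand) measured 3.05 and 3.01 RPKM untreated and 3.01 and 2.97 RPKM treated. WIPI1 (ENSG00000070540; chromosome 17, 66417089 to 66453654, minus strand) measured 1.28 and 1.29 RPKM untreated and 1.18 and 1.11 RPKM treated. ULK1 and BECN1 groups overlapped, while both treated values of WIPI1 were below its controls, with a log2 fold change of -0.09 ± 0.06 (SE). At 30 min the log2 fold changes were -0.05 ± 0.14 for ULK1, 0.04 ± 0.04 for BECN1 and -0.01 ± 0.05 for WIPI1 (SE), and the groups of all 3 genes overlapped.

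**Figure D3:**
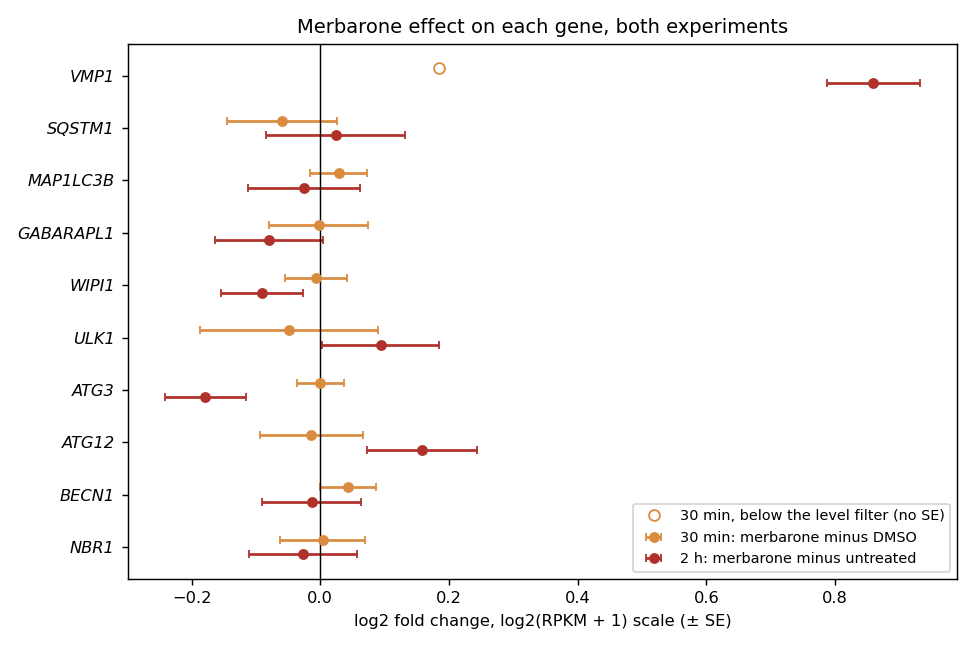
Log2 fold change of each gene on the log2(RPKM + 1) scale with its SE, at 30 min (orange) and 2 h (red); the open circle is VMP1 at 30 min, below the level filter. VMP1 at 2 h is at 0.86, and the other 9 genes lie between -0.18 and 0.16 in both experiments.

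Counts over the 10 genes are given beside those over all genes as a description, and no test is read from them. At 2 h, 1 of the 10 genes, VMP1, was past an adjusted p of 0.05 in limma, where 13.1% of all 6620 tested genes were. VMP1 passed the filter of this fit only through its treated libraries. Treated and control groups did not overlap for 6 of 10 genes, 2 higher and 4 lower, against 61.5% of all tested genes (22.5% higher and 39% lower). At 30 min, 0 of the 9 genes tested passed in limma, 0 had an unadjusted p under 0.05, and 0 had groups that did not overlap. Of all 6500 genes, 0.0154% passed, 0.369% had an unadjusted p under 0.05 and 2.28% had groups that did not overlap. At 2 h the limma fit with the replicate block called VMP1 higher and ATG3 lower among the 10, beside 32.2% of all genes. Voom with the block called the same genes, beside 26%, and voom alone called only VMP1, beside 14%. At 30 min voom with the block called only VMP1 of the 10, and voom alone called 0. The median log2 fold change of the 10 genes at 2 h was -0.02, beside -0.05 for all tested genes. At 2 h the log2 fold changes of SQSTM1, MAP1LC3B, BECN1, NBR1 and ULK1 were near 0 and changed sign in 1 or 2 alternatives each. Of the 10 genes, 7 overlap another gene of the tables, all on the opposite strand, and use of strand in the counting is not given in the sources used here. VMP1, SQSTM1, MAP1LC3B, WIPI1, ATG3, ATG12 and BECN1 are these 7.

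Levels of different genes were compared per kilobase of exons, from the recovered reads, because RPKM over whole spans lowers genes with long introns. The exons of all annotated isoforms were joined, and reads from introns may remain in the counts, so the order is approximate. In untreated cells SQSTM1 was highest at 83.9 ± 7.77 reads per exon kilobase, scaled to library size, followed by MAP1LC3B at 29.2 ± 0.00915 and NBR1 at 23.4 ± 0.256 (SD, n = 2). WIPI1 at 13.8 ± 0.0519 and VMP1 at 13.5 ± 0.866 did not differ beyond their spread, and ATG12 at 5.72 ± 0.383 and ATG3 at 5.65 ± 0.346 did not either (SD, n = 2). After 2 h of merbarone VMP1 reached 35.4 ± 2.03 and stood above MAP1LC3B at 28.6 ± 0.125 and below SQSTM1 at 85.2 ± 2.93 (SD, n = 2). It thus went from rank 5 to rank 2 of the 10 genes. The other 9 kept their order among themselves. ATG12 and ATG3, lowest in both groups, stood at 6.56 ± 0.263 and 4.43 ± 0.0577 after treatment (SD, n = 2). In DMSO, VMP1 was at rank 6 with 10.8 ± 1.85 (SD, n = 3). The means of BECN1 at 11.4 ± 0.265, GABARAPL1 at 10.5 ± 0.611 and ULK1 at 10.01 ± 2.13 lay within the SD of VMP1 (SD, n = 3).

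**Figure D4:**
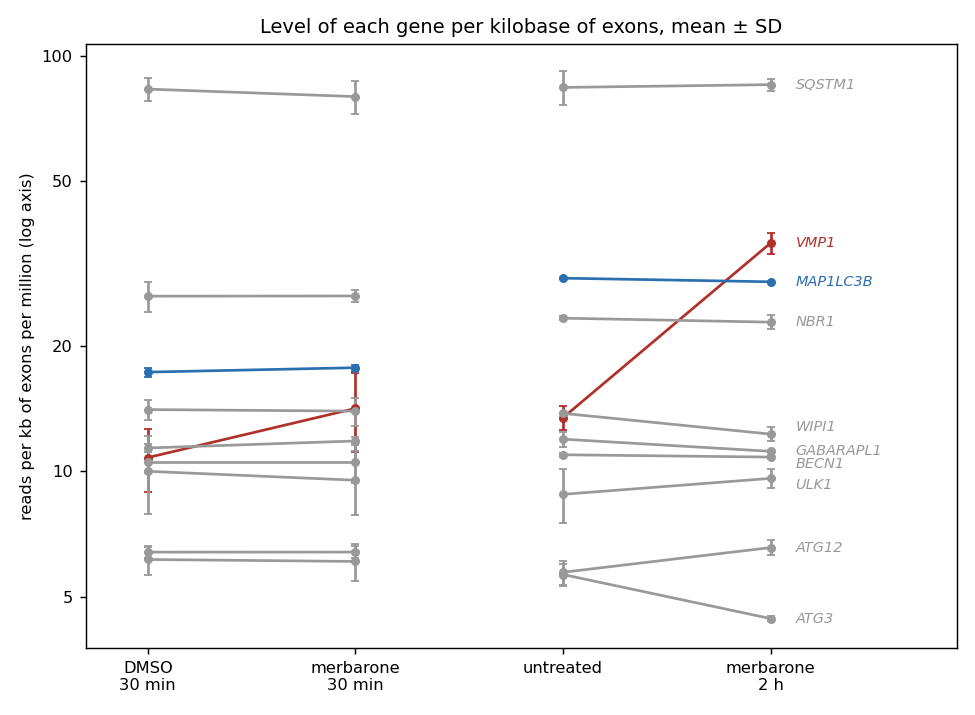
Reads per kilobase of exons, scaled to library size (log axis), of each gene in the 4 groups, mean with SD; lines join control and treated cells of 1 experiment. VMP1 (red) goes from 13.5 to 35.4 at 2 h and passes MAP1LC3B (blue). Among the grey lines at 2 h, ATG3 goes from 5.65 to 4.43 and ATG12 from 5.72 to 6.56, and the others change by smaller ratios.

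MAP1LC3B differed between the experiments in both treated and control cells. Its control means were 4.20 ± 0.103 RPKM in DMSO (SD, n = 3) and 7.07 ± 0.00224 RPKM in untreated cells (SD, n = 2), a ratio of 1.68. This comparison was added after the data were seen, and whether the difference was known when the genes were chosen is not recorded, so it is a description. On the log2 scale untreated cells exceeded DMSO by 0.63 ± 0.05 (SE). MAP1LC3B was 1 of 10 members past the threshold, where 41.2% of the 6558 genes were, 26.7% higher and 14.5% lower. Of all these calls 64.8% were higher, against 47.5% with median scaling, and without untreated replicate 2 their number went from 2702 to 1541. The vehicle, the experiment and the depth cannot be told apart in it.

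The rest of the pathway was read from a list of 66 other genes, 64 of which are in the tables. They cover initiation, the lipid kinase complexes, membrane supply, conjugation enzymes, other members of the MAP1LC3B and GABARAP families, receptors, fusion with lysosomes and lysosomal enzymes. At 30 min, 0 of the 35 genes tested passed in limma, 0 had an unadjusted p under 0.05, and limma's voom on recovered reads called 0 of 62, beside 0.00714% of all genes. At 2 h, 1 of 36 passed, a fall of CTSL, and 0 rose, against 5.98% of all tested genes higher and 7.1% lower. Unadjusted p was under 0.05 for 4 of the 36, against 31.3% of all genes, with ATG2A and TPP1 higher and RAB7A and CTSL lower. Voom on recovered reads, which reaches genes with low RPKM, called 1 of 62 at 2 h, again lower, beside 14% of all genes. With the replicate block it called 12 of 62, 6 higher and 6 lower, beside 26%, and the limma fit with the block called 3 of 36, beside 32.2%. For the difference between the effects at 2 h and 30 min, 0 of 35 passed in limma and 4 had an unadjusted p under 0.05, where 16.1% of genes did. With the replicate block 4 of 35 passed, 1 higher and 3 lower, beside 19.1% of genes. With voom and the block 8 of 62 passed, 3 higher and 5 lower, beside 15.1%. The median log2 fold change at 2 h was -0.05 over the 36 genes and -0.05 over all genes tested.

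CTSL, a lysosomal cysteine protease (chromosome 9, 90338966 to 90346384, plus strand), measured 12.9 and 13.7 RPKM untreated and 9.59 and 10.4 RPKM after 2 h. Both treated values lay below the controls, a log2 difference of -0.38 ± 0.10 (SE) (adjusted p 0.0372, limma). The call ended in 5 of 15 alternatives, among them leaving out either treated library (adjusted p 0.421 without replicate 1 and 0.159 without replicate 2), over a range of 6.37e-04 to 0.421. TMEM41B, which acts with VMP1 in moving lipids, differed by 0.12 ± 0.08 (SE) on the log2 scale at 2 h (adjusted p 0.305, limma). By group at 2 h, 0 of 2 initiation genes passed, 0 of 1 of the lipid kinase complexes, 0 of 6 for membrane supply, 0 of 2 conjugation enzymes, 0 of 2 of the ubiquitin-like family, 0 of 8 receptors, 0 of 4 for fusion and 1 of 11 for the lysosome. All these lists, and the next, were chosen with earlier results of these data known, so their calls are given as a description. Of 8 transcription factors that act on autophagy genes, 3 were tested. In limma 1 was past the threshold, beside 13.1% of all tested genes. This was DDIT3, which is induced by stress of the endoplasmic reticulum. DDIT3 went from 7.24 and 8.57 to 32.0 and 36.5 RPKM, a difference of 1.98 ± 0.12 (SE) on the log2 scale (adjusted p 1.74e-05, limma). ATF4, a transcription factor of the integrated stress response, measured 45.6 and 53.3 RPKM untreated and 59.95 and 66.1 RPKM treated, with no overlap. Its log2 difference was 0.35 ± 0.12 (SE), with adjusted p values of 0.0962 in limma, 0.00993 with the replicate block and 0.0357 with voom. The third tested factor was lower with no overlap, at -0.18 on the log2 scale, and the rest were below the filter. The list had 2 of 3 genes higher with the block, 2 of 8 with voom, and 3 of 8 with voom and the block, where 32.2%, 14% and 26% of all genes were called in either direction.

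**Figure D5:**
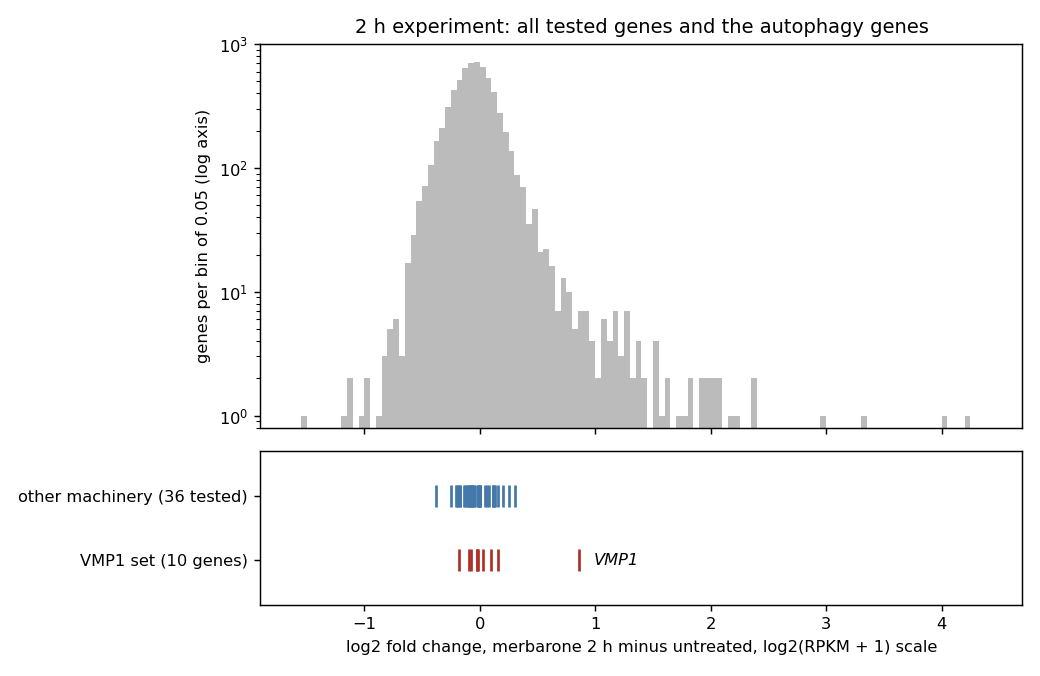
Histogram of the 2 h log2 fold changes of all 6620 tested genes (log axis, bins of 0.05), with ticks for the 10 named genes (red) and 36 other autophagy genes (blue). The other autophagy genes lie between -0.38 and 0.30, and VMP1 lies in the upper tail at 0.86.

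Genes beside VMP1 were looked at because they share its chromosomal region. CLTC, which encodes clathrin heavy chain and lies upstream of VMP1, measured 5.65 and 4.73 RPKM untreated and 6.51 and 6.24 RPKM after 2 h. On the log2 scale it differed by 0.26 ± 0.10 (SE), and limma gave an adjusted p of 0.122, or 0.0195 with the replicate block. PTRH2, a mitochondrial peptidyl-tRNA hydrolase, measured 9.29 and 7.98 RPKM untreated and 10.1 and 9.42 RPKM treated, which is 0.17 ± 0.10 (SE) on the log2 scale (adjusted p 0.311, limma). Both were above their controls in each treated library, as were 22.5% of all tested genes, with differences smaller than that of VMP1. On the far side, TUBD1, RPS6KB1 and RNFT1 were below the filter, at means of 0.178, 0.361 and 0.447 RPKM untreated and 0.198, 0.430 and 0.638 RPKM treated. Voom on recovered reads gave log2 fold changes of 0.15, 0.25 and 0.52 for these 3 genes and called 0 of them.

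The 5 genes whose values were most like those of VMP1 were found by Pearson correlation over the 10 libraries, on log2(RPKM + 1) centred on the control mean of each experiment. They were CSRNP2 (r = 0.989), FGFR1OP2 (0.987), BRPF1 (0.979), TTC32 (0.976) and ZFYVE27 (0.976), out of 6557 genes compared. The points share libraries and depth, and both 2 h merbarone libraries lie far from the other 8, so the coefficients mostly reflect those 2. Sizes differed: TTC32 went from 1.37 to 4.39 RPKM on average at 2 h, CSRNP2 from 3.17 to 5.68, ZFYVE27 from 2.25 to 3.72, FGFR1OP2 from 1.03 to 1.46 and BRPF1 from 1.89 to 2.42. Among the 9 other autophagy genes the coefficient was highest for ATG12, at 0.779, and lowest for ATG3, at -0.895. These ranked 503 and 6299 of the 6557 genes compared.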

How the data were processed

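RNA was sequenced from 10 libraries of hTERT RPE-1 cells, prepared with the TruSeq Stranded mRNA kit from 150 ng of total RNA, per the labels' protocols. The authors deposited 1 table of RPKM values per library, per the file headers. Bowtie 1.2.0 and the build hg19 (GRCh37) are named in the submitters' processing notes, without their role. The counter and annotation are not given in the sources used here. Whole reads were recovered for 17680 of 17680 genes with a value above 0 (100%, tolerance 1e-06), using the lengths implied by the RPKM steps, which lay within 1% of the GRCh37 gene span for 75.2% of genes. Symbols were matched for 19637 of 20327 identifiers.

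Two-sided tests were run with limma 3.58.1 under R 4.3.3 (lmFit, then eBayes with a variance trend). They took log2(RPKM + 1) of genes averaging 1 RPKM or more, with Benjamini-Hochberg adjustment over all tested genes (threshold 0.05). Each experiment was fitted alone. The same-numbered libraries deviated together at 30 min (correlations 0.925, 0.646 and 0.605) and less at 2 h (0.30), by the numbers in the labels. Alternatives were other pseudocounts, filters and scalings, the replicate block, voom on recovered reads, 1 fit of all libraries, and leaving out each library. The fits and the recovery were tested on simulated data. The members and lists were chosen with earlier results of these data known. Named genes were all 10 members, the genes beside VMP1, the 5 most like VMP1, and up to 3 higher and 3 lower genes of each list past the threshold with groups that did not overlap. TMEM41B, ATG2A, TPP1, RAB7A and ATF4 were named after their values were seen. Python 3.11.15 and matplotlib 3.10.9 drew the plots.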

Additional observations from a re-analysis of the deposited data

Results flagged for a closer look

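The effect of merbarone on VMP1 was larger at 2 h than at 30 min. The difference of the effects was 0.67 ± 0.13 (SE) on the log2(RPKM + 1) scale and passed the threshold of the limma contrast over all 10 libraries, as did 1.63% of 6558 genes. VMP1 passed the filter of that contrast only through its 2 h merbarone libraries. The difference is a description, since VMP1 was chosen with these effects known. The call was lost in 12 of 19 alternatives, including 8 of the 10 fits that each left out a library (differences of 0.61 to 0.76 over the 10), and the difference kept its sign in all 19. For DDIT3 the difference was 1.95 ± 0.16 (SE), with an adjusted p of 5.72e-04 in limma. Its list was also chosen with earlier results of these data known, so this too is a description. Of the 35 other autophagy machinery genes, 0 passed this contrast. An unadjusted p under 0.05 was found for 4 of them, where 16.1% of all genes had one. With the replicate block 4 passed, beside 19.1% of all genes. With voom and the block 8 of 62 passed, beside 15.1%. VMP1 and DDIT3 drew attention because the difference between the experiments was itself tested. Time, vehicle and experiment cannot be told apart in it.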

How the results depend on the processing

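At 2 h the log2 fold change of VMP1 stayed between 0.82 and 0.90 when each library was left out. It was 1.31 with a pseudocount of 0.1 (also with a filter of 0.1 RPKM). With voom on recovered reads it was 1.40, both with and without the replicate block. The VMP1 call at 2 h was lost in 1 of 14 alternatives (adjusted p 0.0516, limma), and the sign was kept in all 14.

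Genes called at 30 min numbered 1. The count was 0 without a filter or with the pseudocount and filter of 0.1, and 2 with a filter of 5 RPKM, median scaling, quantile normalization or all 10 libraries in 1 fit. It was 8 with the replicate block, 13 with voom and the block (VMP1 among them), and 0 to 2 without each library. At 2 h the 866 calls became 53 without a filter, 397 with a filter of 5 RPKM, 2129 with the block, 1886 with voom, 3488 with voom and the block, and 328 to 2464 without each library. The lowest of these was without merbarone replicate 1 and the highest without untreated replicate 1. Other autophagy genes called at 2 h went from 1 to 0 without a filter, with the pseudocount and filter of 0.1, or with quantile normalization, to 3 with the block, 12 with voom and the block, and 0 to 7 without each library. The 107 genes whose effect differed became 361 without a filter, 36 with a filter of 5 RPKM, 1255 with the block, 66 with voom, 2100 with voom and the block, and 38 to 86 without each library. The cause of these changes was not tested. At 2 h the block fit rests on a pairing correlation of 0.30 and moderates each variance fully toward the trend. The lone library left by leaving 1 out at 2 h is assumed to vary like the other group. Depth, at 11962092 to 13696974 reads in the 2 h experiment, leaves 356 to 480 reads for ATG3, the lowest of the 10 genes.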

Other observations

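Several autophagy genes differed between the untreated and DMSO controls, in a comparison added after the data were seen. In limma on all 10 libraries, 11 of 35 machinery genes passed, 6 higher and 5 lower in untreated cells, or 31.4%, against 41.2% of all 6558 genes. GABARAP, a ubiquitin-like protein of the family of GABARAPL1, and BNIP3, a mitophagy receptor induced by low oxygen, were higher by 0.78 and 0.79 on the log2 scale. NEU1, YKT6, WDR45B and WIPI2 were higher by 0.35, 0.38, 0.39 and 0.23. CTSD, LAMP2, ATG2A, TMEM41B and BNIP3L had log2 differences of -0.57, -0.46, -0.44, -0.27 and -0.25. The count was 7 without untreated replicate 2 and 22 without a filter on low values. With median scaling, 6 were higher and 7 lower. Vehicle, experiment and depth cannot be told apart in this comparison.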
